A study of Mus musculus with 12 samples.

Results

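The mRNA levels of 10 genes that set the pace of G1 were followed across 4 groups of mouse embryonic stem cells (mESCs). They were chosen by name and role, with earlier results of these data known. The cyclins are the D-type Ccnd1, Ccnd2 and Ccnd3 and the E-type Ccne1 and Ccne2. The others are the CDK inhibitors Cdkn1a, Cdkn1b, Cdkn2a and Cdkn2b, and the phosphatase Cdc25a. The deposited table held 39017 genes, and all 10 were among the 17885 genes with enough reads to be tested. The RNA sequencing data compare a wild-type line, J1, with the line 3B3-3l (3B3L in the study) in serum or in 2i, with 3 biological replicates per group. Both lines are male. 3B3-3l cells carry a double knockout of Dnmt3a and Dnmt3b, and express Dnmt3b and Dnmt3l from transgenes driven by the constitutive CAG promoter. The serum medium held fetal calf serum and LIF. The 2i medium was free of serum and held LIF, the MEK inhibitor PD0325901 at 1 uM and the GSK3 inhibitor CHIR99021 at 3 uM, so that medium and inhibitors changed together. In serum, J1 cells grew on inactivated feeder cells that were depleted before analysis and 3B3-3l cells grew on gelatin, so line and culture surface cannot be told apart there. Feeder cells were also removed for the conversion to 2i. In J1, 2i against serum thus also takes in the loss of feeders, as does the difference of the 2i effects between lines.

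D-type cyclins activate CDK4 and CDK6, and E-type cyclins activate CDK2. Both kinase pairs phosphorylate the RB family of pocket proteins, which releases E2F factors to drive genes for DNA replication, and CDC25A removes inhibitory phosphates from CDK2. Inhibitors of the Cip/Kip family (p21 from Cdkn1a, p27 from Cdkn1b) bind cyclin-CDK complexes, whereas INK4 proteins (p16 from Cdkn2a, p15 from Cdkn2b) bind CDK4 and CDK6. mESCs are known for a short G1 with high cyclin E-CDK2 activity.

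The 12 libraries held 37050652 to 44515395 estimated reads each, and levels are given as CPM, the reads of a gene scaled to a common library size. Dnmt3b stood at 891 ± 32 CPM in 3B3-3l serum and 928 ± 12.7 CPM in 3B3-3l 2i (SD, n = 3). In J1 it stood at 413 ± 12.2 CPM in serum, against 44.1 ± 3.13 CPM in 2i. Total Dnmt3l was at 485 ± 32.9 and 290 ± 4.57 CPM in 3B3-3l serum and 2i, against 285 ± 0.413 and 52.8 ± 4.26 CPM in J1. This total was lower in 2i in both lines. In 3B3-3l it does not separate reads of the Dnmt3l transgene from those of the endogenous gene. Dnmt3a still read 32.1 ± 2.5 CPM in 3B3-3l serum and 4.67 ± 0.584 CPM in 3B3-3l 2i, below the 166 ± 0.792 and 41.5 ± 2.78 CPM of J1. All 9 measured mESC markers were detected in every group, with summed levels of 4820 to 6620 CPM. In 2i, 4 of them were called higher and 3 lower in J1, and 4 higher and 2 lower in 3B3-3l (adjusted p under 0.05). Over all genes 65.9% and 65.1% were called in these contrasts. A list of 15 fibroblast markers summed to 109 to 123 CPM in J1 serum, against 46.9 to 48.3 CPM in J1 2i. It summed to 157 to 177 CPM in 3B3-3l serum and 36.4 to 37.6 CPM in 3B3-3l 2i. Lum was at 0 in J1 serum, and Lum, Dcn and Twist2 were at 0 in both 2i groups. Of 11 fibroblast markers tested in J1, 8 were called lower and 1 higher in 2i. The latter, Pdgfrb, went from 6.31 ± 0.855 to 19.4 ± 0.896 CPM. Endoderm markers (8 genes) summed to 8.74 to 9.38 CPM in J1 serum, 6.39 to 7.1 in J1 2i, 16 to 17.4 in 3B3-3l serum and 7.94 to 8.48 in 3B3-3l 2i, with Afp at 0 in J1 2i. The 6 mesoderm markers gave 7.05 to 7.3 CPM and 40.1 to 45.6 CPM in J1 serum and 2i, and 6.73 to 7.44 CPM and 28.9 to 30.3 CPM in 3B3-3l serum and 2i. The 4 neuroectoderm markers gave 66.1 to 72 CPM and 21.3 to 25.3 CPM in J1, and 109 to 120 CPM and 37 to 38.8 CPM in 3B3-3l, with Neurog2 at 0 in every group but J1 serum. The 5 trophoblast markers summed to 6.09 to 6.93 CPM and 3.84 to 4.65 CPM in J1 serum and 2i, and to 6.26 to 7.53 CPM and 2.96 to 3.32 CPM in 3B3-3l. Some sums mix directions or rest largely on 1 gene. In J1, 2 of 7 endoderm markers tested were called higher in 2i and 2 lower. Among these, Dab2 went from 5.11 to 1.22 CPM and Gata4 from 2.23 to 4.14 CPM. Nes alone was at 60.9 and 22.8 CPM in J1 serum and 2i, and at 106 and 37.8 CPM in 3B3-3l. The part of these marker shifts in the results below was not tested.

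2i lowered Ccnd2 and Ccne1 and raised Cdkn1a and Cdkn2a in both lines. In J1, 9 of the 10 genes differed between 2i and serum, 6 higher and 3 lower. Over all genes tested 65.9% were called in this contrast (33.2% higher and 32.8% lower), where called means a Benjamini-Hochberg adjusted p under 0.05. In 3B3-3l, 9 of 10 were called as well, 7 higher and 2 lower, against 65.1% of all genes (32.6% higher and 32.5% lower). The count in 3B3-3l fell to 5, 3 higher and 2 lower, without 3B3-3l 2i replicate 3, and was 6 to 9 without any other single library. Their median log2 fold change was 0.32 in J1 and 0.22 in 3B3-3l, beside 0.014 and 0.009 over all genes. The share of members called is thus read against a background in which most genes were called. The group means spanned 4.84 log2 units for Ccnd2, 2.71 for Cdkn2a, 1.92 for Cdkn1a and 1.42 for Ccne1, but 0.06 for Cdc25a.

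**Figure D1:**
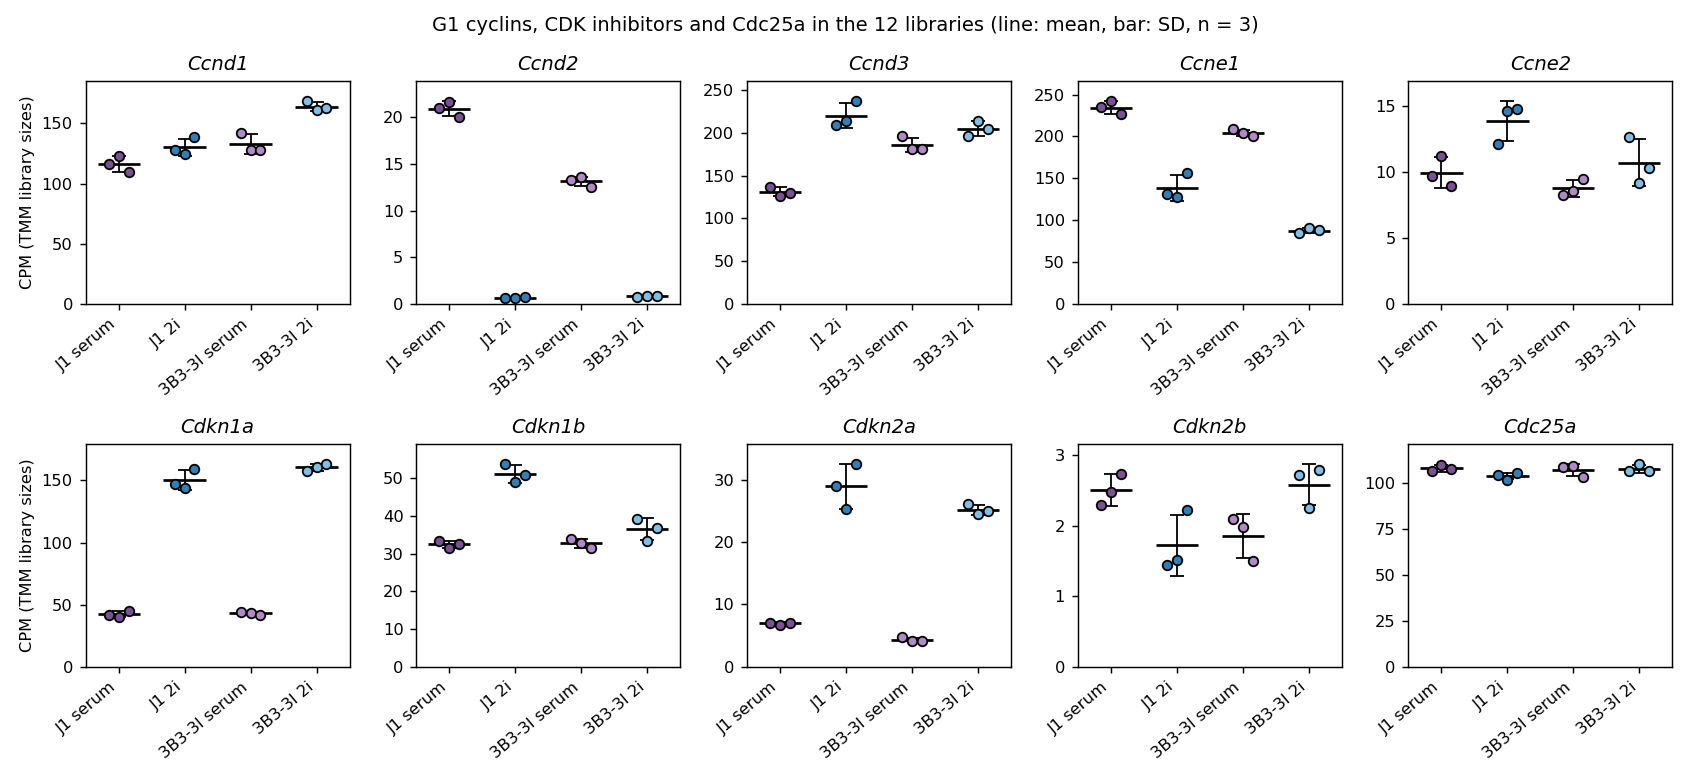
Level of each gene (y axis, CPM with TMM library sizes, starting at 0) in the 3 libraries of each group (x axis), with the group mean as a line and the SD as a bar. Ccnd2 sits at 12.6 to 21.7 CPM in serum, against 0.638 to 0.841 CPM in 2i, whereas Cdc25a stays between 102 and 110 CPM.

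Among the D-type cyclins, the largest change was in Ccnd2 (chr6:127125162-127152188). Its level was 21.0, 21.7 and 20.1 CPM in the 3 J1 serum libraries and 0.638, 0.645 and 0.781 CPM in J1 2i. In 3B3-3l it was 13.3, 13.6 and 12.6 CPM in serum, against 0.741, 0.841 and 0.821 CPM in 2i. All serum libraries of a line lay far above its 2i libraries, which still held 28 to 36 reads each. The change was a 30.4-fold fall in J1 (log2 fold change -4.93 ± 0.10 SE, adjusted p = 2.67e-17) and a 16.4-fold fall in 3B3-3l (-4.03 ± 0.10, adjusted p = 2.74e-16). The 2 falls differed by 0.89 ± 0.17 on the log2 scale (adjusted p = 0.000622). The lines were apart in serum (-0.67 ± 0.07 in 3B3-3l against J1, adjusted p = 7.07e-07) and not separable in 2i (0.22 ± 0.16, 95% interval -0.11 to 0.56, adjusted p = 0.396). In bulk RNA, fewer cells that express Ccnd2 and less Ccnd2 RNA per cell cannot be told apart.

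Ccnd3 (chr17:47505051-47599689) moved the other way. J1 libraries gave 137, 126 and 130.1 CPM in serum, against 209, 214 and 237 CPM in 2i, and the groups did not overlap. The rise was 0.75 ± 0.06 (adjusted p = 1.22e-09). In 3B3-3l the values were 196, 182 and 182 CPM in serum, against 197, 214 and 205 CPM in 2i, with the highest serum library next to the lowest 2i library. There the difference was 0.14 ± 0.06 (adjusted p = 0.0369), and it passed the threshold in only 6 of 19 alternative settings. Of these settings, transcript length offsets say little on Ccnd3, since the transcripts behind its offset held at most 2.65% of its reads. The call was lost without 3B3-3l serum replicate 2 or 3, or 3B3-3l 2i replicate 2 or 3 (0.08 to 0.14, adjusted p up to 0.272). It was also lost without any 1 of the 3 J1 serum libraries (0.11 each). Those libraries enter this contrast only through the shared filter, scaling and spread. The 2i effect was smaller in 3B3-3l by 0.61 (-0.61 ± 0.08, adjusted p = 1.21e-05). Ccnd3 was higher in 3B3-3l than in J1 in serum (0.51 ± 0.06, adjusted p = 1.37e-06), and its interval in 2i was -0.22 to 0.01.

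Ccnd1 (chr7:144929931-144939831) had the narrowest range of group means among the D-type cyclins, 0.49 log2 units. It ranged from 109.9 to 123 CPM in J1 serum, 124 to 138 CPM in J1 2i, 127 to 142 CPM in 3B3-3l serum and 161 to 168 CPM in 3B3-3l 2i. 3B3-3l 2i stood above and J1 serum below all other groups, while J1 2i and 3B3-3l serum overlapped. The 2i effect was 0.31 ± 0.06 in 3B3-3l (adjusted p = 0.000126) and 0.16 ± 0.06 in J1 (adjusted p = 0.0222), and the difference of 0.15 ± 0.08 was not called (adjusted p = 0.174). The small J1 effect was lost without J1 serum replicate 1 (0.15), J1 serum replicate 3 (0.12) or J1 2i replicate 3 (0.11), and was -0.04 with transcript length offsets. Those offsets take in Ccnd1-002, a short retained-intron transcript of 470 bases, whose share of the level per length was estimated at 18.9% in J1 serum and 5.72% in J1 2i. Ccnd1 was higher in 3B3-3l than in J1 by 0.33 ± 0.06 in 2i (adjusted p = 0.000106) and by 0.19 ± 0.06 in serum (adjusted p = 0.016). The latter was lost without J1 serum replicate 3 (0.15) or 3B3-3l serum replicate 1 (0.13) and with the length offsets (0.05).

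The E-type cyclins diverged. Ccne1 (chr7:38097984-38107490) was at 235, 242 and 227 CPM in J1 serum, against 132, 128 and 157 CPM in J1 2i. In 3B3-3l it was at 208, 204 and 200.4 CPM in serum, against 84.7, 90.4 and 87.9 CPM in 2i. No 2 groups overlapped, and J1 2i replicate 3 stood above its partners. The fall was 0.76 on the log2 scale in J1 (-0.76 ± 0.06, adjusted p = 4.64e-09) and 1.22 in 3B3-3l (-1.22 ± 0.06, adjusted p = 5.58e-12), and it was larger in 3B3-3l (difference -0.46 ± 0.09, adjusted p = 0.000582). Ccne1 was lower in 3B3-3l than in J1 in 2i (-0.66 ± 0.06, adjusted p = 1.43e-07). In serum the difference was -0.20 ± 0.06 (adjusted p = 0.0162), and it was lost without J1 serum replicate 2 (-0.18), 3B3-3l serum replicate 2 (-0.20) or 3B3-3l serum replicate 3 (-0.19).

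Ccne2 (chr4:11190433-11204779) was expressed at a far lower level. It ranged from 8.96 to 11.2 CPM in J1 serum, 12.1 to 14.8 CPM in J1 2i, 8.26 to 9.47 CPM in 3B3-3l serum and 9.16 to 12.7 CPM in 3B3-3l 2i. The 2 J1 groups did not overlap, whereas those of 3B3-3l did. Ccne2 rose in J1 (0.47 ± 0.12, adjusted p = 0.00175), which was 0.21 and no longer called with transcript length offsets. Those offsets take in Ccne2-005, a short processed transcript of 432 bases. Its share of the level per length was estimated at 38.0% in J1 serum and 27.3% in J1 2i. In 3B3-3l the difference of 0.29 ± 0.12 (adjusted p = 0.0418) was lost in 10 of 19 alternative settings. Among them were the fits without any 1 of the 3 J1 serum libraries, 3B3-3l serum replicate 1 or 2, or 3B3-3l 2i replicate 1 or 3 (0.15 to 0.32, adjusted p up to 0.266). The J1 serum libraries enter that contrast only through the shared filter, scaling and spread. The 2i effects were not separable between lines (difference -0.18 ± 0.17, adjusted p = 0.431). In 2i, Ccne2 was lower in 3B3-3l than in J1 (-0.37 ± 0.11, adjusted p = 0.014), a call lost without replicate 2 or 3 of either 2i group (-0.34 to -0.29) and with length offsets (-0.13).

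Cdkn1a (chr17:29090979-29100722), which encodes p21 and is a classical target of p53, rose in 2i in both lines. J1 libraries gave 42.0, 40.4 and 44.6 CPM in serum, against 147, 144 and 159.5 CPM in 2i. Those of 3B3-3l gave 43.6, 43.3 and 41.5 CPM in serum, against 158, 161 and 163 CPM in 2i. Within each medium the lines overlapped, and between media there was a wide gap. The rise was 3.55-fold in J1 (log2 fold change 1.83 ± 0.05, adjusted p = 2.03e-15) and 3.75-fold in 3B3-3l (1.91 ± 0.05, adjusted p = 8.71e-16). The 2 effects differed by 0.08, with a 95% interval of -0.08 to 0.23 (adjusted p = 0.459). Between lines the intervals were -0.10 to 0.13 in serum and -0.01 to 0.20 in 2i. The latter difference of 0.09 was called only without J1 2i replicate 3 (0.14, adjusted p = 0.0297).

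Cdkn1a has 2 annotated starts with different upstream sequence, and transcripts were assigned to each. The 250 bases before each start are shown because the transcript assigned to the downstream one carried most of the rise. They are written on the + strand of GRCm38.p6 from RefSeq, in lower case with each CpG in capitals, for chr17:29090729-29090978 (upstream start) and chr17:29093519-29093768 (downstream start).
Cdkn1a upstream start: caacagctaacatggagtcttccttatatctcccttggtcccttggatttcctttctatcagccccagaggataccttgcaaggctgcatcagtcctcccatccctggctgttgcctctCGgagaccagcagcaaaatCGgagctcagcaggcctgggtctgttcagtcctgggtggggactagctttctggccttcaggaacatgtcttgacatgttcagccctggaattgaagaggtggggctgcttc
Cdkn1a downstream start: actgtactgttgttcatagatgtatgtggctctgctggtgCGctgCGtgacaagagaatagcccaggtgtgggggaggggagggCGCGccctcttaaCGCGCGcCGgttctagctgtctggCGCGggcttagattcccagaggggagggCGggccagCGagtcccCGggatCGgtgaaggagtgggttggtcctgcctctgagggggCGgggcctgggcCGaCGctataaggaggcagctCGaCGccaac
The upstream window held 2 CpGs and no GC box (GGGCGG on either strand), whereas the downstream window held 19 CpGs and 2 GC boxes. Of 32851 such windows before mouse gene starts, 81.2% held at least 2 CpGs, 19.7% held at least 19, and 32.7% had at least 1 GC box. The transcript from the downstream start, Cdkn1a-001, went from 40.1 ± 1.55 to 147 ± 8.64 CPM in J1, and in 3B3-3l from 41.1 ± 0.791 to 159 ± 3.14 CPM. The transcript from the upstream start, Cdkn1a-003, was at 2.03 ± 0.685 CPM in J1 serum, against 1.78 ± 0.816 CPM in J1 2i, with overlapping libraries. In 3B3-3l it was at 1.47 ± 0.34 CPM in serum, against 0.566 ± 0.421 CPM in 2i (9 to 43 reads per 2i library), without overlap. Another transcript, Cdkn1a-002, was tied to neither window. It was at 0.144 ± 0.103 and 1.12 ± 0.121 CPM in J1 serum and 2i, and at 0.229 ± 0.167 and 1.11 ± 0.268 CPM in 3B3-3l, from 2 to 14 reads per serum library and 35 to 54 reads per 2i library, and the media did not overlap. The split of reads between transcripts that share exons is an estimate, and no test was run on it.

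Cdkn2a (chr4:89274473-89294619) showed the largest rise. Its level was 7.07, 6.73 and 7.05 CPM in J1 serum, against 29.0, 25.4 and 32.5 CPM in J1 2i. In 3B3-3l it was 4.70, 4.18 and 4.20 CPM in serum, against 26.1, 24.5 and 24.9 CPM in 2i. Each 2i group lay far above its serum group, and the 2 serum groups did not overlap. The rise was 4.17-fold in J1 (2.06 ± 0.09, adjusted p = 2.46e-13) and 5.77-fold in 3B3-3l (2.53 ± 0.09, adjusted p = 2.62e-14). It was larger in 3B3-3l by 0.47 ± 0.13 (adjusted p = 0.00749). In serum Cdkn2a was lower in 3B3-3l than in J1 (-0.67 ± 0.10, adjusted p = 3.56e-05). In 2i the groups overlapped and the difference of -0.20 ± 0.08 (adjusted p = 0.0378) did not hold without J1 2i replicate 1 (-0.20) or 3 (-0.11), or without any 1 of the 3 3B3-3l 2i libraries (-0.23 to -0.20).

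The Cdkn2a locus encodes 2 unrelated proteins from separate first exons. The upstream exon is that of p19ARF, which binds MDM2 and so stabilises p53, and the downstream exon is that of the CDK4 and CDK6 inhibitor p16INK4a. The 250 bases before each start are shown because nearly all of the rise came from one of them. They lie on the - strand of GRCm38.p6 (RefSeq), at chr4:89294620-89294869 (upstream start) and chr4:89282193-89282442 (downstream start), with each CpG in capitals.
Cdkn2a upstream start: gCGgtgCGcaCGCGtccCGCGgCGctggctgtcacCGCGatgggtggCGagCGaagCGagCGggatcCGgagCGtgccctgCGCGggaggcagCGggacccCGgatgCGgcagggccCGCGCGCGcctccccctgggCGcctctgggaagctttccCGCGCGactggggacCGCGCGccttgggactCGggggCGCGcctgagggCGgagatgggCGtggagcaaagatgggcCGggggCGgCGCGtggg
Cdkn2a downstream start: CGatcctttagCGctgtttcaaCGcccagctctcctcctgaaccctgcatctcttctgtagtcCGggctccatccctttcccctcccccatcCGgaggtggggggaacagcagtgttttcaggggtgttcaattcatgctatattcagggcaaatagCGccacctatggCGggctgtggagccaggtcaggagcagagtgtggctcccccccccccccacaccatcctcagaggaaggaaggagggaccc
The upstream window held 40 CpGs, a count reached by 1.31% of the 32851 windows, with 2 GC boxes and 1 match to an E2F motif (TTTCCCGC or TTTGGCGC on either strand, in 1.3% of windows). The downstream window held 7 CpGs, reached by 46.3% of windows, and none of these motifs. Neither window held an E-box (CACGTG, in 6.02% of windows). A match of letters is a description and not a bound site.

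Transcript Cdkn2a-002, which begins at the upstream start, held 93.0 to 97.3% of the level per length in J1 serum and 96.5 to 97.5% in J1 2i. Its share was 91.2 to 100% in 3B3-3l serum and 94.6 to 95.4% in 3B3-3l 2i. It rose 4.27-fold in J1, from 6.6 ± 0.3 to 28.2 ± 3.6 CPM, and 5.76-fold in 3B3-3l, from 4.16 ± 0.313 to 24.0 ± 0.867 CPM. Cdkn2a-001, from the downstream start, was estimated at 0 to 19 reads per serum library and 32 to 54 reads per 2i library. These 2 transcripts share their later exons, so that the small count given to Cdkn2a-001 is uncertain.

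**Figure D2:**
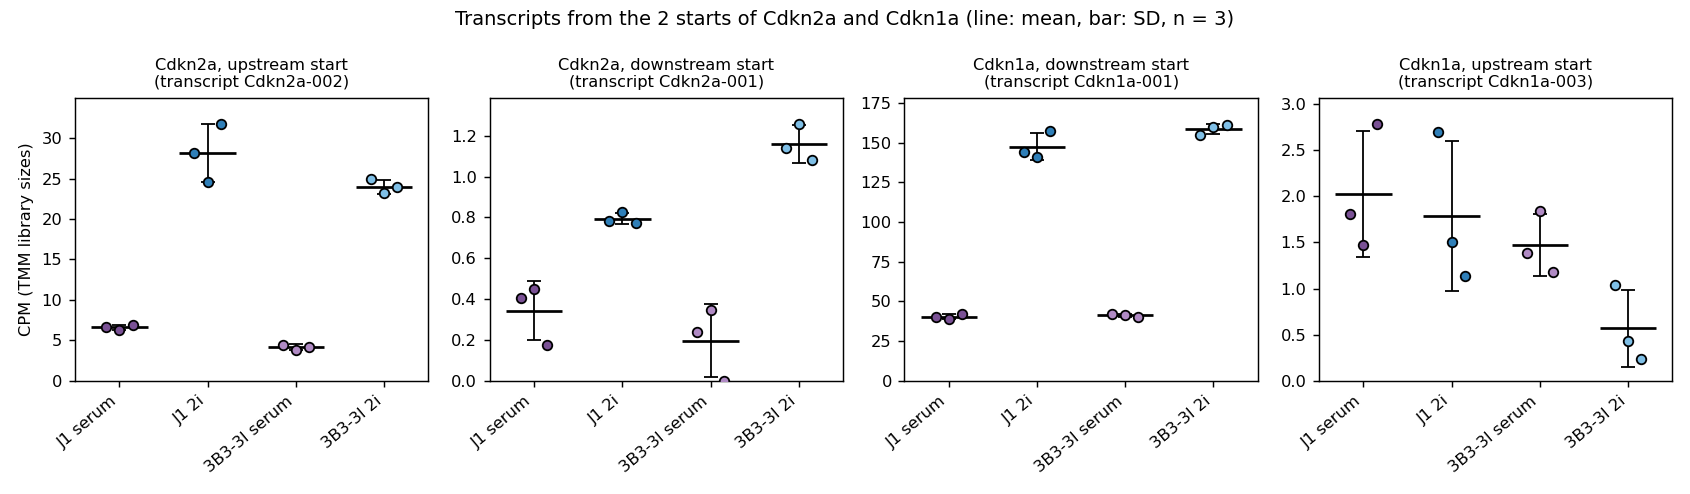
Level of the transcripts assigned to each start of Cdkn2a and Cdkn1a (y axis, CPM, own scale in each panel, starting at 0) in the 3 libraries of each group (x axis), with mean (line) and SD (bar). Cdkn2a-002 and Cdkn1a-001 carry nearly all reads and the rise in 2i, while Cdkn1a-003 stays at 0.233 to 2.79 CPM.

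Cdkn2b (chr4:89306289-89311032), the neighbour of Cdkn2a and the gene for p15, did not follow it. It was low throughout, at 2.29, 2.48 and 2.74 CPM in J1 serum, 1.44, 1.52 and 2.22 in J1 2i, 2.09, 1.98 and 1.49 in 3B3-3l serum and 2.72, 2.25 and 2.79 in 3B3-3l 2i, from 58 to 113 reads per library. The groups of a line did not overlap, and the order of media was opposite in the 2 lines. Cdkn2b fell in J1 (-0.54 ± 0.18, adjusted p = 0.012) and rose in 3B3-3l (0.47 ± 0.18, adjusted p = 0.0244), and the effects differed by 1.01 ± 0.25 (adjusted p = 0.00404). The fall in J1 was lost without J1 2i replicate 1 (-0.42, adjusted p = 0.0655). The rise in 3B3-3l was lost without 3B3-3l serum replicate 3 (0.34), 2i replicate 1 (0.44) or 2i replicate 3 (0.42). The difference between the effects was called in all 18 alternative settings run for it, at 0.88 to 1.24. In 2i Cdkn2b was higher in 3B3-3l (0.59 ± 0.18, adjusted p = 0.0107), though not called without J1 2i replicate 1 (0.47), and in serum the difference was -0.43 ± 0.18 (adjusted p = 0.0636).

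Cdkn1b (chr6:134920401-134925525), the gene for p27, rose in J1. It was at 33.3, 31.5 and 32.5 CPM in J1 serum, against 53.7, 49.0 and 50.8 CPM in J1 2i. In 3B3-3l it was at 33.9, 32.9 and 31.5 CPM in serum, against 39.2, 33.4 and 36.8 CPM in 2i. J1 2i stood above all other groups, and the 2 groups of 3B3-3l overlapped. The 2i effect was 0.66 ± 0.06 in J1 (adjusted p = 3.21e-08) and 0.15 ± 0.06 in 3B3-3l (adjusted p = 0.0405), and these differed (-0.50 ± 0.09, adjusted p = 0.00026). The 3B3-3l value was called in 8 of 19 alternative settings. It was lost without any 1 of the 3 J1 serum libraries, 3B3-3l serum replicate 2 or 3, or 3B3-3l 2i replicate 1 or 3 (0.10 to 0.16, adjusted p up to 0.216). Here too the J1 serum libraries enter only through the shared filter, scaling and spread. The lines differed in 2i (-0.49 ± 0.06, adjusted p = 4.16e-06) and were within -0.12 to 0.15 in serum.

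Both annotated transcripts of Cdkn1b share their start and are protein coding, and they differ in length. The shorter form, Cdkn1b-002 (2393 bases), held 73.1 ± 2.17% of the level per length in J1 serum, 78.0 ± 2.93% in J1 2i, 74.7 ± 6.65% in 3B3-3l serum and 79.5 ± 2.24% in 3B3-3l 2i. The media overlapped in both lines, so no shift between the 2 forms was resolved. The longer form (4552 bases) was at 13.6 ± 1.23 CPM in J1 serum, against 18.2 ± 1.37 CPM in J1 2i, and the shorter form at 18.8 ± 0.422 and 33.0 ± 3.32 CPM. In 3B3-3l the longer form was at 13 ± 2.24 and 12.3 ± 1.15 CPM in serum and 2i, with overlapping libraries, and the shorter form at 19.8 ± 3.31 and 24.2 ± 2.7 CPM, without overlap.

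Cdc25a (chr9:109875518-109893895) was the member without a call in any contrast. Its libraries ranged from 107 to 110.0 CPM in J1 serum, 102 to 105 CPM in J1 2i, 104 to 109 CPM in 3B3-3l serum and 106 to 110.3 CPM in 3B3-3l 2i. The 2i effect was -0.06 in J1 (adjusted p = 0.27) and 0.01 in 3B3-3l (adjusted p = 0.904). The interval of the difference between lines was -0.10 to 0.08 in serum and -0.04 to 0.15 in 2i.

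Between lines, 5 of the 10 genes were called in serum, 2 higher and 3 lower in 3B3-3l, against 38.5% of all genes (21.5% higher and 17.1% lower). In 2i, 6 were called, 2 higher and 4 lower, against 45.9% of all genes (23% higher and 22.9% lower). The 2i effect differed between lines for 6 members, Ccnd2, Ccnd3, Ccne1, Cdkn1b, Cdkn2a and Cdkn2b, beside 34.5% of all genes (16.2% higher and 18.3% lower). All 6 differences were called in every one of 18 alternative settings. Median differences of the 10 genes were -0.10 in serum, -0.03 in 2i and 0.07 for the difference of effects, beside 0.031, 0.01 and -0.027 over all genes.

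**Figure D3:**
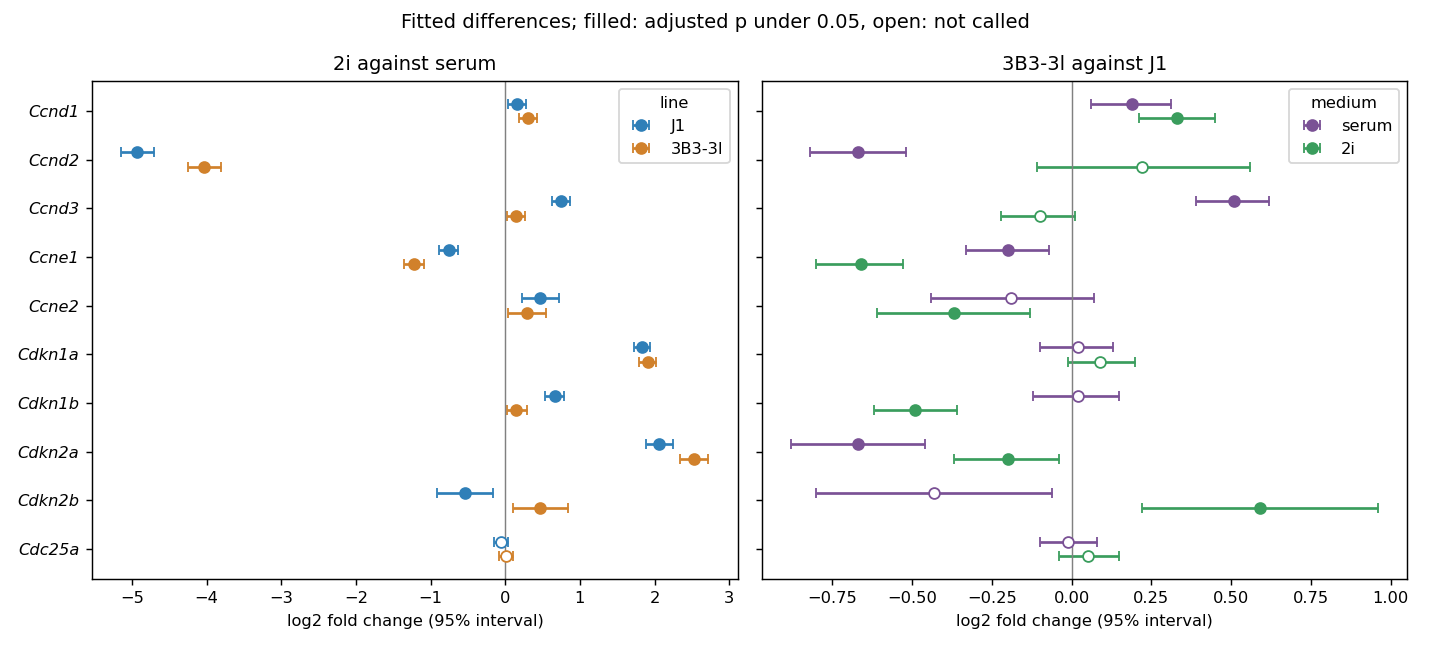
Fitted log2 fold change with its 95% interval (x axis) for each gene (y axis), for 2i against serum in each line (left) and for 3B3-3l against J1 in each medium (right). Filled points passed adjusted p under 0.05. Ccnd2 lies at -4.93 and -4.03 on the left, whereas all differences between lines on the right stay within -0.67 to 0.59.

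Levels of different genes were compared per kilobase of transcript and scaled to library size in the same way as CPM, for the 9 members whose transcripts could be named (all but Ccnd3). On this scale Ccne1 was first in serum, at 144 ± 4.03 in J1 and 122 ± 5.78 in 3B3-3l, and Ccnd1 followed at 39.5 ± 3.3 and 40.8 ± 5.07. In 2i Cdkn1a came first, at 89.7 ± 3.87 in J1 and 93.5 ± 1.52 in 3B3-3l. In J1 2i its range met that of Ccne1 (82.8 ± 9.69), while in 3B3-3l 2i Ccne1 was lower, at 54.1 ± 3.07, with a range that met that of Ccnd1 (50.1 ± 2.45). Cdkn2a moved from 9.58 ± 0.314 to 40.3 ± 4.59 in J1, where its range met that of Ccnd1 in 2i (38.6 ± 2.46), and from 6.08 ± 0.331 to 34.5 ± 1.22 in 3B3-3l. Cdc25a stayed at 29.7 to 31.8 in all libraries. Cdkn1b was at 11.5 ± 0.161, 19.0 ± 1.23, 11.9 ± 0.96 and 13.7 ± 1.25 in J1 serum, J1 2i, 3B3-3l serum and 3B3-3l 2i, and Ccne2 was between 5.54 and 9.48. The short processed transcript Ccne2-005, with 15 to 51 reads per library, held 27.3 to 41.2% of the Ccne2 level in group means. Cdkn2b and Ccnd2 were last in every group. Ccnd2 was above Cdkn2b in serum (3.78 ± 0.144 against 2.04 ± 0.181 in J1) and below it in 2i (0.125 ± 0.0145 against 1.41 ± 0.349 in J1).

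The kinases that these genes serve changed modestly. Cdk2 rose in both lines (0.58 in J1, adjusted p = 1.43e-09, and 0.66 in 3B3-3l, adjusted p = 2.12e-10), as did Cdk4 (0.29, adjusted p = 5.02e-05, and 0.43, adjusted p = 5.34e-07). Cdk6 was not called (0.05 and -0.12). Of 11 kinase partners and regulators, 3 were called higher and 4 lower in J1 (median -0.04), and 3 higher and 3 lower in 3B3-3l (median 0.05), shares near those of all genes (65.9% and 65.1%). Between lines, 3 were higher and 1 lower in serum, 4 higher and 1 lower in 2i, and 3 had a different 2i effect. Over all genes 38.5%, 45.9% and 34.5% were called in these contrasts, so the counts are near those shares.

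Other CDK inhibitors split. Cdkn1c, which encodes p57, a relative of p21 and p27, went from 23.4 ± 1.27 to 1.46 ± 0.249 CPM in J1 (log2 fold change -4.00, adjusted p = 4.38e-15), and in 3B3-3l from 12.6 ± 1.66 to 0.596 ± 0.103 CPM (-4.39, adjusted p = 1.2e-14). Its relatives Cdkn1a and Cdkn1b rose in J1. Cdkn2c, the gene for the INK4 inhibitor p18, rose in J1 (1.28, adjusted p = 9.76e-06) from a level of 0.789 ± 0.14 CPM, and its value in 3B3-3l was 0.43 (adjusted p = 0.055). Of the 3 genes of this list tested, 2 were called higher and 1 lower in J1, and 1 higher and 1 lower in 3B3-3l. The gene called higher in 3B3-3l was Cdkn3 (0.77, adjusted p = 1.54e-06), which also rose in J1 (0.57, adjusted p = 4.59e-05). Cdkn3 belongs to neither the Cip/Kip nor the INK4 family. Over all genes 65.9% and 65.1% were called. In 3B3-3l against J1, 1 was lower in serum, 2 were lower in 2i, and 1 had a different 2i effect. The shares of all genes called in these contrasts were 38.5%, 45.9% and 34.5%.

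Ubiquitin ligase parts that turn over cyclins and inhibitors showed no common direction. Of 11 tested, 3 were higher and 3 lower in J1 (median -0.04), and 2 higher and 5 lower in 3B3-3l (median -0.07), also near the shares of all genes. Skp2, which marks p27 for degradation, fell by 0.64 in J1 (-0.64, adjusted p = 1.32e-09) and by 0.26 in 3B3-3l (-0.26, adjusted p = 0.000131). Fbxw7, which recognises cyclin E, was not called in either line (-0.11 and 0.11). Between lines, 3 were higher and 1 lower in serum, 3 higher and 2 lower in 2i, and 4 had a different 2i effect. These counts are near the 38.5%, 45.9% and 34.5% of all genes called.

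Pocket proteins, E2F and DP factors moved in both directions. Rb1 fell (-1.31, adjusted p = 6.23e-09, in J1 and -1.45, adjusted p = 1.38e-09, in 3B3-3l), whereas Rbl1, which encodes p107, rose (1.12, adjusted p = 6.69e-12, and 0.82, adjusted p = 4.67e-10). Rbl2, which encodes p130, fell in J1 (-0.28, adjusted p = 0.0179) and rose in 3B3-3l (0.30, adjusted p = 0.0121). Of 13 genes, 4 were higher and 7 lower in J1 (median -0.19), and 7 higher and 5 lower in 3B3-3l (median 0.18), where 65.9% and 65.1% of all genes were called. The activator E2f1 rose by 0.69 and 0.18 and E2f6 by 0.68 and 0.61, while the repressor E2f8 (-0.90 and -1.40) and the DP partner Tfdp2 (-0.99 and -0.77) fell. Between lines, 3 were higher and 3 lower in serum, 4 higher and 5 lower in 2i, and 9 had a different 2i effect, beside 38.5%, 45.9% and 34.5% of all genes called.

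Genes for DNA replication, many of them E2F targets, were higher in 2i. Of 22 tested, 18 rose in J1 (median 0.25) and 20 rose in 3B3-3l (median 0.37), and the 22 estimates were above 0 in both lines. Over all genes 33.2% and 32.6% were called higher. This list, like the others, was chosen with earlier results of these data known. Among the largest were Rrm2 (0.76), Tk1 (0.65) and Pola1 (0.54) in J1, and Tk1 (0.83) and Tyms (0.77) in 3B3-3l, all enzymes of nucleotide supply or DNA synthesis. Between lines, 5 were higher and 4 lower in serum (38.5% of all genes were called), 10 higher and 6 lower in 2i (45.9%), and 7 had a different 2i effect (34.5%).

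Of 16 mitotic genes, 1 was higher and 9 were lower in J1 (median -0.19), and 1 was higher and 7 were lower in 3B3-3l (median -0.10). The 10 and 8 calls are no larger a share than the 65.9% and 65.1% of all genes called. The 9 and 7 lower calls stand beside 32.8% and 32.5% of all genes tested that were called lower. The mitotic activators Cdc20 (-0.78 and -0.33) and Plk1 (-0.66 and -0.32) fell in both lines, with Bub1b (-0.38 and -0.18) and the motor gene Kif11 (-0.35 and -0.28). Cenpf rose in J1 (0.42) and Cdk1 in 3B3-3l (0.20). In 2i, 10 of the 16 were higher and 2 lower in 3B3-3l than in J1. In serum, 4 were higher and 3 lower, and 6 had a different 2i effect. The shares of all genes called were 45.9%, 38.5% and 34.5% in these contrasts. No measure of cell cycle phase was among the values analysed here.

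**Figure D4:**
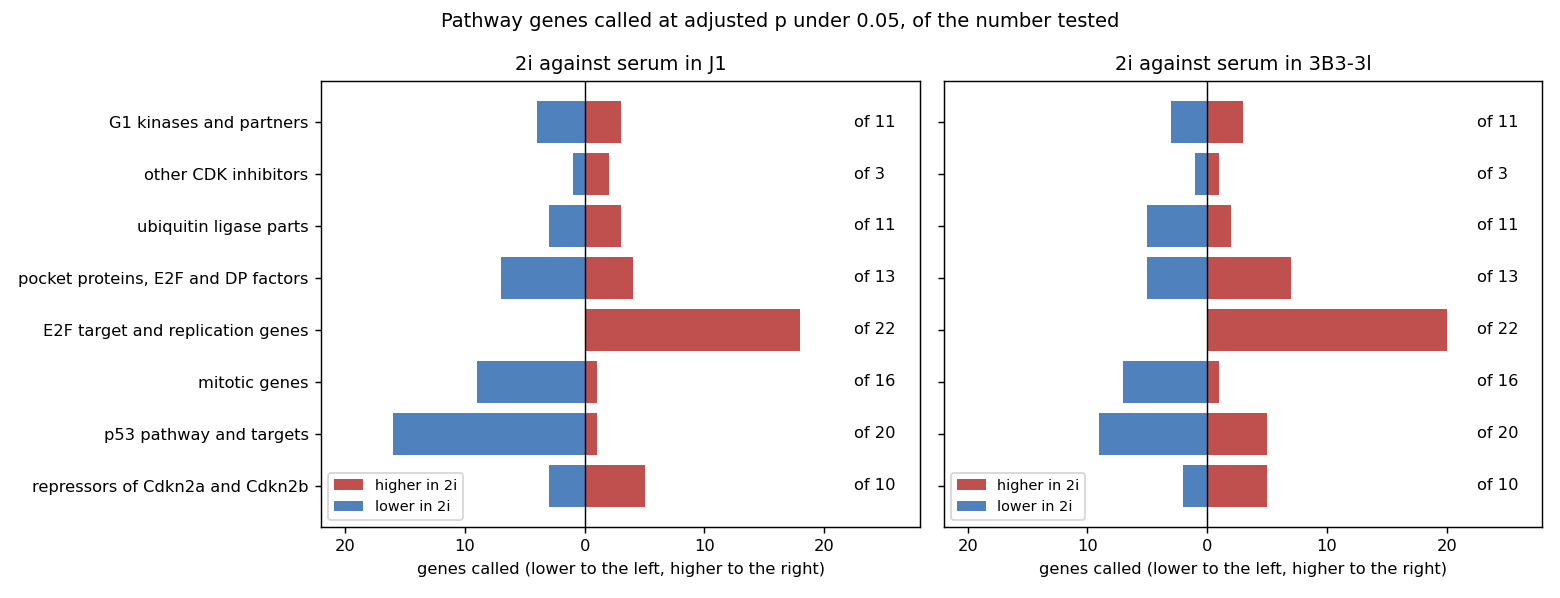
Number of genes called (x axis) to the right when higher and to the left when lower in 2i, for 8 pathway lists (y axis) in J1 (left) and 3B3-3l (right), with the number tested beside each bar. Replication genes are called higher in 18 of 22 cases in J1 and 20 of 22 in 3B3-3l, and p53 pathway genes are called lower in 16 of 20 cases in J1 and 9 of 20 in 3B3-3l.

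Cdkn1a is a target of p53, and the p53 pathway was therefore set beside it. Of 20 other pathway genes, 1 was higher and 16 were lower in J1 2i (median -0.53), and 5 were higher and 9 lower in 3B3-3l 2i (median -0.11). Over all genes 32.8% and 32.5% were lower. Trp53 itself went from 505 ± 25.2 to 282 ± 19.5 CPM in J1 (-0.84, adjusted p = 4.61e-10), and was 341 ± 15 and 331 ± 15.1 CPM in 3B3-3l (-0.04, adjusted p = 0.546). Mdm2, the ligase for p53 and its target, fell by 0.68 in J1 (-0.68, adjusted p = 1.96e-10) and by 0.13 in 3B3-3l (-0.13, adjusted p = 0.0193). The apoptosis genes Bbc3 (-1.97 and -1.51), Pmaip1 (-1.49 and -2.45) and Perp (-2.03 and -1.77) fell in both lines. Gdf15 was the gene of this list that rose with Cdkn1a in both lines (0.83 and 1.18).

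The lines also differed in Plk2, a p53-responsive kinase. It was at 29.5 ± 0.617 CPM in J1 serum, against 9.02 ± 0.563 CPM in J1 2i, but 33.7 ± 0.857 and 31.7 ± 0.38 CPM in 3B3-3l, and the 2i effects differed by 1.62 (adjusted p = 2.1e-10). Sesn2 (-0.27 and 0.41) and Phlda3 (-0.23 and 0.44) fell in J1 and rose in 3B3-3l. In all, 13 of 20 effects differed between lines, 12 of them higher in 3B3-3l, beside 34.5% of all genes called and 16.2% called higher. In 3B3-3l against J1, 2 genes were higher and 6 lower in serum, where 38.5% of all genes were called, and 14 were higher and 1 lower in 2i, where 45.9% were. The 2i effect on Cdkn1a was not among those called different.

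**Figure D5:**
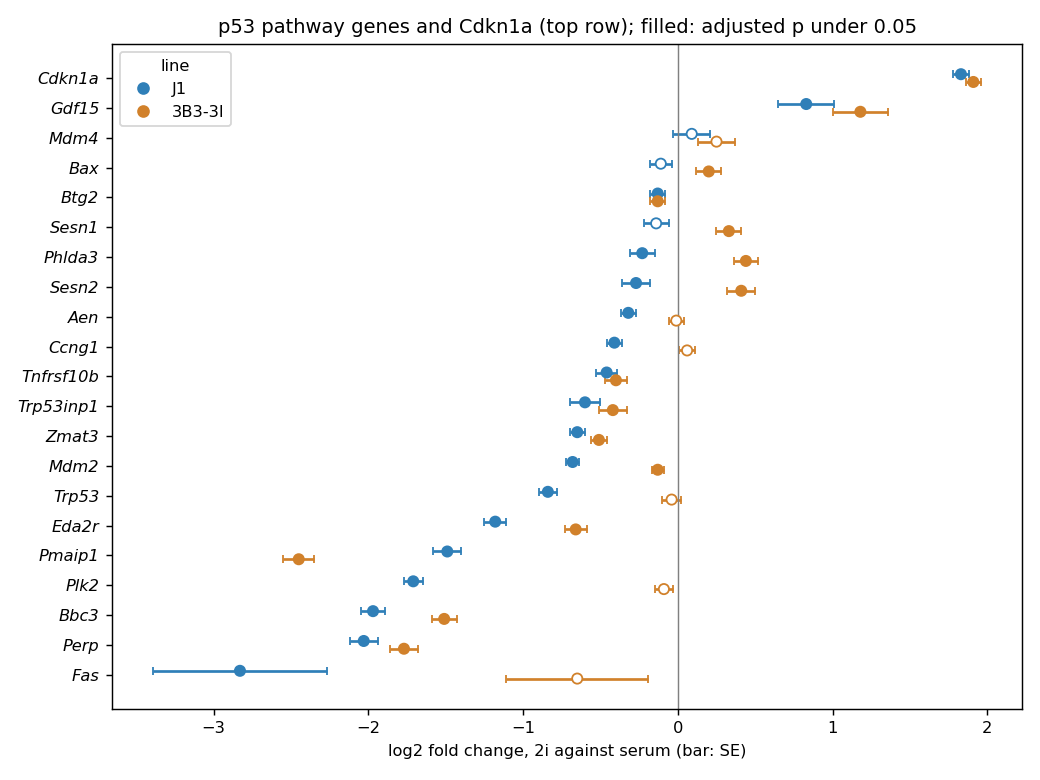
Log2 fold change of 2i against serum (x axis, bar: SE) for 20 p53 pathway genes and Cdkn1a at the top (y axis), in J1 and 3B3-3l. Filled points passed adjusted p under 0.05. Cdkn1a lies at 1.83 and 1.91, and most other genes of the list lie below 0 in J1.

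Known repressors of the Cdkn2a and Cdkn2b locus moved in both directions. Of 10 tested, 5 were higher and 3 lower in J1 (median 0.45), and 5 higher and 2 lower in 3B3-3l (median 0.13), where 65.9% and 65.1% of all genes were called. Bmi1, a subunit of polycomb repressive complex PRC1, rose with Cdkn2a (2.42, adjusted p = 3.62e-12, and 2.08, adjusted p = 1.9e-11). The T-box repressor Tbx3 rose from 39 ± 1.06 to 220 ± 10.6 CPM in J1 (2.50), and in 3B3-3l from 50.4 ± 3.66 to 240 ± 1.23 CPM (2.25). Among PRC2 genes, Ezh2 rose in J1 (0.76) and had a value of 0.05 in 3B3-3l (adjusted p = 0.365), and Eed fell in J1 (-0.35) and rose in 3B3-3l (0.15). Suz12 rose in both lines (0.57, adjusted p = 6.38e-06, and 0.53, adjusted p = 1.26e-05), while Kdm2b, a histone demethylase gene, fell in both (-0.20 and -0.57). Cbx8 was at 0.523 to 2.28 CPM in group means and rose in 3B3-3l (2.12, adjusted p = 8.88e-07). Between lines, 5 were higher and 1 lower in serum, 4 higher and 1 lower in 2i, and 5 had a different 2i effect. These counts stand beside 38.5%, 45.9% and 34.5% of all genes called.

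The genes whose levels ran most like those of the 2 widest-ranging members were sought among 10127 genes, by Pearson's r of log2 CPM over the 12 libraries. These points fall into 4 groups, so that r mainly reflects the group means. Nearest to Ccnd2 were Wscd1 (r = 0.999), Enah (0.999) and Lefty1 (0.998). Nearest to Cdkn2a were Hap1 (0.998), Naa40 (0.998) and Tmem173 (0.997).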

How the data were processed

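Poly(A) RNA was sequenced by the authors from stranded libraries, pooled in a way that the labels do not tie to libraries. Sailfish, run with a strand setting on mm10 transcript models, gave transcript estimates. With tximport the authors turned these into a deposited gene table of estimated counts, without scaling for depth or length. The authors also deposited transcript tables with estimated counts and TPM (transcripts scaled for length and depth by Sailfish). Here the TPM values served only to weight transcript lengths within a gene for the transcript length offsets. Groups are from the labels.

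Estimated counts were rounded, filtered with filterByExpr of edgeR (version 4.0.16, R 4.3.3), which left 17885 of 39017 genes, and scaled by TMM. All 12 libraries entered 1 robust quasi-likelihood fit, in which each group had its own coefficient (biological coefficient of variation 6.49%). Contrasts took 2i against serum in each line, 3B3-3l against J1 within serum and within 2i, and the 2i effect of 3B3-3l less that of J1. Adjusted p values are from edgeR, over all genes tested in a contrast. Errors of log2 fold changes are SE, and errors of CPM are SD (n = 3). A floor of 3 counts was 0.0684 to 0.0813 CPM, which covers counting error only. Replicates of a group differed by more than sampling noise.

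Symbols were matched for 85.6% of genes (98.4% of reads), and 90.4% of transcripts were assigned to a gene. Levels per length sum each transcript's reads over its effective length. Coordinates are whole genes in the RefSeq annotation of GRCm38 (mm10), and promoter windows, found for 7 of the 10 members, are those of RefSeq on GRCm38.p6. Transcripts were tied to a start by 40 bases of sequence. Members and lists were chosen with earlier results of these data known. All members are named, with a chosen set of genes whose products bind theirs (Cdk2, Cdk4, Cdk6, Cdkn1c, Cdkn2c, Rb1, Rbl1, Rbl2, Trp53, Mdm2, Skp2 and Fbxw7), and from each list otherwise genes among the 3 highest and 3 lowest called in a contrast. Cdkn2d and Fbxo31 had no value. Alternatives were DESeq2 (version 1.42.0) size factors and Wald test, leaving low counts unfiltered or asking for 10 counts in each library, a fit to just the 6 libraries of a contrast, a block on replicate number, transcript length offsets, and leaving out each library.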

Additional observations from a re-analysis of the deposited data

Results flagged for a closer look

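The 2i effect, tested as an interaction in the edgeR model, differed between the lines for 6 members, and each value here is the log2 effect in 3B3-3l minus that in J1. Cdkn2b differed by 1.01, with opposite directions in the 2 lines. Ccnd2 (0.89) fell less and Cdkn2a (0.47) rose more in 3B3-3l. Ccnd3 (-0.61) and Cdkn1b (-0.50) had smaller positive effects there, and Ccne1 (-0.46) a larger fall. The 2i effect in J1 also takes in the removal of feeder cells, whose part was not tested.

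Among the partner genes named above, the difference was 0.80 for Trp53, 0.55 for Mdm2, 1.62 for Plk2, 0.68 for Sesn2, 0.67 for Phlda3, 0.46 for Bbc3 and -0.96 for Pmaip1. Among regulators of the G1 kinases it was -0.85 for Cdkn2c, 0.39 for Skp2 and 0.21 for Fbxw7. For pocket proteins and their partners it was -0.30 for Rbl1, 0.58 for Rbl2, -0.51 for E2f1, -0.50 for E2f8 and 0.21 for Tfdp2. Replication and mitotic genes gave -0.37 for Rrm2, 0.64 for Tyms, 0.45 for Cdc20, 0.33 for Plk1, 0.20 for Bub1b and 0.26 for Cdk1. Repressors of the Cdkn2a locus gave 1.80 for Cbx8, -0.71 for Ezh2, 0.49 for Eed, -0.37 for Kdm2b and -0.25 for Tbx3. Over all genes tested 34.5% were called in this contrast.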

How the results depend on the processing

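Of 940 values recomputed under 19 alternative settings, 873 kept their direction and side of the threshold, 60 lost their call, 6 gained one and 1 reversed, and 35 of 50 member-by-contrast values never changed. The reversal was Ccnd1 in J1 (2i against serum), at -0.04 with transcript length offsets, where the offsets take in the estimated share of Ccnd1-002. The 2i effects of Ccnd2, Ccne1, Cdkn1a and Cdkn2a in both lines were called in all 19 settings. So were those of Ccnd3 and Cdkn1b in J1 and of Ccnd1 in 3B3-3l (0.25 to 0.36). For Ccnd3 the length offsets rest on transcripts that held at most 2.65% of its reads. The count of members called for 2i against serum in 3B3-3l ran from 5 to 9 when 1 library was left out and was lowest without 3B3-3l 2i replicate 3. The calls lost across these settings were those of Ccnd3, Ccne2, Cdkn1b and Cdkn2b, and the cause was not tested. Over all settings the counts were 7 to 9 for 2i against serum in J1, 4 to 6 between lines in each medium, and 6 to 7 for the difference of the 2i effects. With the replicate number as a block, 9, 7, 5, 6 and 6 members were called in the 5 contrasts, in the order J1, 3B3-3l, serum, 2i and difference. The calls lost under this block were those of Ccnd3 (0.14, adjusted p = 0.058) and Ccne2 (0.29, adjusted p = 0.0672) in 3B3-3l. Libraries with the same number did not deviate together (r = -0.118 to 0.0167), and at most 1 of 6 libraries in a contrast correlated best with its own number. The planned share of each D-type cyclin in their summed level was not run, since the Ccnd3 transcripts could not be named. Members with few reads, Ccnd2 in 2i (28 to 36 per library) and Cdkn2b (58 to 113), carry more counting error than the others.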
